A study of Mus musculus with 36 samples.

Results

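The interferon-stimulated genes described here are Irf7, Isg15, Ifit1, Ifit3, Oasl2, Usp18, Rtp4, Bst2 and Ifi44. These 9 genes were chosen by symbol as well-known targets of type I interferon, and their Ensembl identifiers were looked up among the 78239 genes of the count files. The libraries hold RNA from 3 organs (heart, kidney, liver) of C57BL/6NCrl males, an inbred wild-type strain kept on chow under a light and dark cycle, bought as young mice and killed under ketamine and xylazine anesthesia by cervical dislocation. The ages were 8, 10 and 12 weeks, with 4 libraries in each of the 9 groups and 36 in all. No mutation, infection or drug was described for any group, apart from the anesthetic, which all groups shared. Mice were called healthy, but no test for infection was reported. The study asked how the 3 organs change between late adolescence and young adulthood. The 4 libraries of a group are stated to be biological replicates.

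Cells that sense viral or misplaced nucleic acids release type I interferons, which bind a receptor made of IFNAR1 and IFNAR2. The receptor activates the kinases JAK1 and TYK2, and transcription factors that include STAT2 and IRF9 then bind interferon-stimulated response elements in target promoters. In healthy tissue the targets are transcribed at a low basal level, set in part by small amounts of interferon made without infection.

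The members cover several steps of this response. Irf7 (ENSMUSG00000025498, chromosome 7, 140842619 to 140846398, minus strand, build GRCm39) encodes the transcription factor that amplifies interferon production. Isg15 (ENSMUSG00000035692, chromosome 4, 156283883 to 156285303, minus strand) encodes a small ubiquitin-like protein that is attached to other proteins. Usp18 (ENSMUSG00000030107, chromosome 6, 121222848 to 121247877, plus strand) encodes the protease that removes ISG15 and that also dampens signalling at the interferon receptor. Ifit1 (ENSMUSG00000034459, chromosome 19, 34618271 to 34632174, plus strand) and Ifit3 (ENSMUSG00000074896, chromosome 19, 34560899 to 34566443, plus strand) belong to a family with proteins that bind foreign RNA. Both genes lie close together on the chromosome. Oasl2 (ENSMUSG00000029561, chromosome 5, 115034997 to 115050295, plus strand) belongs to the oligoadenylate synthetase family of sensors of double-stranded RNA. Bst2 (ENSMUSG00000046718, chromosome 8, 71986895 to 71990114, minus strand) encodes tetherin, which holds budding virus particles at the cell surface. Rtp4 (ENSMUSG00000033355, chromosome 16, 23337811 to 23432972, plus strand) encodes a transporter of receptors to the cell surface. Ifi44 (ENSMUSG00000028037, chromosome 3, 151436559 to 151455625, minus strand) encodes a cytoplasmic protein that is induced by interferon.

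The promoters of the members were searched for the core of the interferon-stimulated response element, written as GAAANNGAAA, on both strands from 250 bases before to 50 bases after the start of the canonical transcript. It was found in 6 of 9 members, against 831 of 21710 protein-coding genes (3.83%). The sequences around the matches are shown because this element is the one through which type I interferon is known to act on its targets, the class from which the members were chosen. They are printed 5′ to 3′ on the strand of the gene, from build GRCm39, and the capitals mark the matches, which can overlap. A run of T and C in capitals is a match on the opposite strand.
Isg15, chr4:156285312-156285373, minus strand: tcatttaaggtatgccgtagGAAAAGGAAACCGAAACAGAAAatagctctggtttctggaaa
Usp18, chr6:121222762-121222835, plus strand: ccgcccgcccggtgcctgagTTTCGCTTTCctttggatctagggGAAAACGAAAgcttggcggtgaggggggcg
Ifit1, chr19:34618165-34618233, plus strand: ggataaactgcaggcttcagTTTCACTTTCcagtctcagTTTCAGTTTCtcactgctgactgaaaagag
Ifit3, chr19:34560753-34560802, plus strand: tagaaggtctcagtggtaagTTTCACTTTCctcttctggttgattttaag
Ifit3, chr19:34560787-34560836, plus strand: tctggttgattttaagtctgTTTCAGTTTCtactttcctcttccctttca
Rtp4, chr16:23428575-23428645, plus strand: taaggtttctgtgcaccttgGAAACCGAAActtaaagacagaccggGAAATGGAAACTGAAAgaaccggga
Bst2, chr8:71990211-71990266, minus strand: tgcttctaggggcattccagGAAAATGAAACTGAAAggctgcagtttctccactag

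Rtp4 had 4 matches and Isg15 had 3, while Ifit1, Ifit3, Usp18 and Bst2 had 2 each. One further Rtp4 match, counted among its 4, reached past the start and is not printed. No match was found in this window of Irf7, Oasl2 or Ifi44, which says only that these letters were not there. A match of letters is a description and was not tested for binding.

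Levels are given as CPM, the read pairs on a gene per 1000000 pairs counted on all genes of its library. The libraries held 21031599 to 33637390 counted pairs, and the labelled tissues carried their own markers. The summed CPM of 7 heart muscle genes was at least 48634 in every heart library, at most 5.166 in kidney and at most 1.228 in liver. In heart at 10 weeks, however, the summed CPM of 7 liver genes ran from 1.29 to 24.94, against 0.9797 to 2.175 at 8 weeks, and at least 79263 in liver itself. A count covers 1 bulk tissue, so fewer cells of a type and less RNA per cell cannot be told apart.

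The pairs on the members over all 36 libraries ran from 4170 for Usp18 to 46738 for Bst2, with Isg15 as an exception. Isg15 held only 159 pairs in the column that ignores strand, which is the column used for the other members. The 2 strand columns of the same files held 3562 pairs on Isg15 together, 22.4 times as many. A noncoding gene on the opposite strand, Gm46878 (chr4:156270634-156284608, plus strand), covers 243 of the 782 exon bases of Isg15 (31.1%) in the annotation used here, and a pair that overlaps genes on both strands counts for neither in the column without strand. A library that does not mark strand puts such a pair in a strand column according to its orientation, so the levels of Isg15 below are sums of both strand columns, as CPM of the pairs in those columns. Gm9706, a copy with 95.23% identity over 482 bases, remains a further uncertainty for Isg15.

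**Figure D1:**
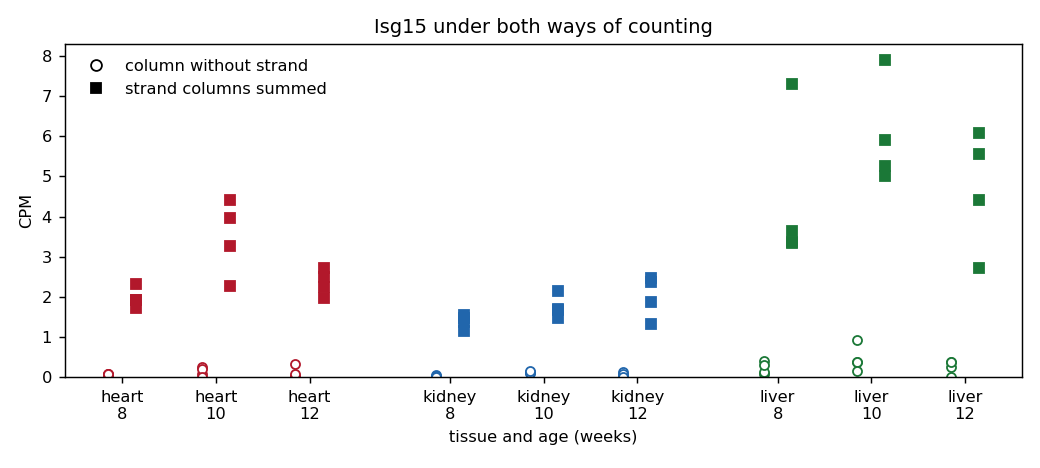
Isg15 in CPM (vertical axis) in each of the 36 libraries by tissue and age, counted without strand (open circles) and as the sum of both strand columns (filled squares). Every open circle lies at or below 0.922 CPM, and every filled square at or above 1.16 CPM.

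Usp18 was affected to a smaller degree, with 4170 pairs without strand and 6795 in the strand columns, beside an antisense noncoding gene (Gm44148) over 150 of its exon bases. The other 7 members kept ratios of the strand columns to the column without strand between 1 and 1.007. Ifit3 and its neighbour Ifit3b share 97.18% of the Ifit3 transcript at 97.24% identity, and STAR drops pairs that match both equally, so the level of Ifit3 is uncertain. Rtp4 shares 1129 exon bases (26.6%) with the noncoding gene Gm45338 on the same strand.

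Per kilobase of exon, Bst2 was the highest member in heart and liver and Ifit3 in kidney. The mean level of Bst2 was 13.5 CPM per kb in heart, 8.63 in kidney and 96.8 in liver. Ifit3 stood at 4.10 CPM per kb in heart, 9.22 in kidney and 3.95 in liver. Irf7 stood at 3.16, 2.43 and 8.95 CPM per kb in the same order. Isg15, counted on both strands and so on its own scale, stood at 3.33, 2.19 and 6.45 CPM per kb. Bst2, Ifit3 and Irf7 were among the 4 highest in each tissue when all members were taken without strand. By the sums of both strand columns, Irf7 ranked 5 in kidney and Ifit3 ranked 5 in liver. Isg15 then ranked 3, 4 and 3 in heart, kidney and liver, against 9 in each tissue without strand. The lowest member per kilobase also depended on the column. With all members taken from both strand columns, it was Ifi44 in heart (0.84) and liver (0.607) and Ifit1 in kidney (0.618). Usp18 then stood at 1.05, 0.906 and 3.44 CPM per kb in heart, kidney and liver, against 0.751, 0.609 and 2.56 without strand.

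Across the tissues, the fitted log2 changes below use TMM factors, which scale each library by the bulk of its genes, so they can differ from the ratio of the CPM levels. Bst2 showed the widest difference. In heart its level ran from 13.5 to 19.5 CPM with a median of 16.1, in kidney from 8.25 to 14.7 with a median of 10.1, and in liver from 88.3 to 161 with a median of 119. The liver libraries lay above all heart and kidney libraries. The log2 change of Bst2 was 3.10 ± 0.07 (SE) for liver against heart and 4.28 ± 0.08 for liver against kidney, from 12 libraries per tissue (edgeR quasi-likelihood test, Benjamini-Hochberg adjusted p = 3.2e-29 and 2.35e-32). Kidney was below heart by a log2 change of -1.18 ± 0.07 (adjusted p = 7.54e-17).

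Irf7, the factor of the feedback loop, was also highest in liver. Its level ran from 17.8 to 93.5 CPM in liver (median 29.9), from 6.88 to 28.0 in heart (median 10.0) and from 6.72 to 17.1 in kidney (median 8.0). All liver libraries exceeded all kidney libraries, while liver and heart overlapped through a single heart library at 28.0 CPM. The log2 change was 1.76 ± 0.18 for liver against heart and 2.63 ± 0.19 for liver against kidney (adjusted p = 9.94e-11 and 9.05e-15).

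Isg15 and Usp18 had the same order of tissues. Usp18 had medians of 2.41 CPM in heart, 1.84 in kidney and 6.70 in liver, with ranges of 1.28 to 3.77, 1.55 to 3.19 and 3.54 to 24.1. Liver lay 2.01 ± 0.20 above heart and 2.84 ± 0.21 above kidney on the log2 scale (adjusted p = 3.34e-11 and 1.14e-14). Isg15 from both strand columns had medians of 2.30, 1.61 and 5.14 CPM in the same order of tissues, and its log2 changes were 1.29 ± 0.14 for liver against heart and 2.36 ± 0.15 for liver against kidney (adjusted p = 4.85e-10 and 2.95e-16). The same test on the few pairs of the column without strand gave 1.79 ± 0.46 and 3.16 ± 0.50 (adjusted p = 0.000562 and 6.39e-07). The conjugating enzyme of ISG15, Ube2l6, followed liver as well, with a mean of 44.8 CPM against 12.7 in heart and 4.76 in kidney. Its log2 change was 2.08 ± 0.11 for liver against heart (adjusted p = 4.14e-19). The activating enzyme Uba7 did not share this order, at 13 CPM in heart, 8.52 in kidney and 8.10 in liver. The ligase Herc6 stood at 2.34, 5.10 and 7.37 CPM. With TMM factors, all 3 of these enzyme genes were called higher in liver than in kidney, as were 37.0% of all genes. For Uba7 this direction was opposite to that of its mean CPM.

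Rtp4 and Ifit1 were called higher in liver by smaller amounts. Rtp4 had medians of 7.26, 4.03 and 12.0 CPM for heart, kidney and liver, and lay 1.12 ± 0.16 above heart and 2.32 ± 0.16 above kidney in liver (log2, adjusted p = 5.76e-08 and 4.69e-15). Ifit1 had medians of 7.77, 4.91 and 7.72 CPM in heart, kidney and liver. Heart and liver levels of Ifit1 thus nearly coincided in CPM, and the call against heart came with the TMM factors. Its change was 0.42 ± 0.17 for liver against heart (adjusted p = 0.026) and 1.59 ± 0.18 for liver against kidney (adjusted p = 6.9e-10). The call of Ifit1 against heart was lost when any of 5 libraries was left out, with adjusted p values from 0.0502 to 0.0981, and also with library totals alone (log2 change 0.15, adjusted p = 0.418). The 5 libraries were liver 8 weeks replicate 1, liver 10 weeks replicate 2, liver 12 weeks replicate 3, and heart 10 and 12 weeks replicate 4.

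The order was different for Ifit3 and Ifi44, which were highest in kidney. Ifit3 ran from 19.8 to 40.3 CPM in kidney, from 7.70 to 16.3 in heart and from 7.82 to 17.9 in liver, so kidney did not overlap with either. Its log2 change was 0.64 ± 0.14 for kidney against heart and -0.41 ± 0.14 for liver against kidney (adjusted p = 7.87e-05 and 0.00642). Liver against heart was not called for Ifit3 (0.22 ± 0.14, adjusted p = 0.14). Ifit3b, the near copy, stood at 8.60 CPM in kidney, 4.40 in heart and 2.93 in liver. Ifi44 ran from 12.8 to 21.9 CPM in kidney, from 3.61 to 10.4 in heart and from 2.07 to 17.5 in liver. Kidney lay 0.87 ± 0.21 above heart, and liver lay -1.10 ± 0.21 relative to kidney (log2, adjusted p = 0.000271 and 1.8e-05). Liver against heart was not called for Ifi44 (-0.23 ± 0.22, adjusted p = 0.336), but without liver 10 weeks replicate 2, which held the 17.5 CPM, the change was -0.63 (adjusted p = 3.43e-05). With all libraries and library totals alone, this change was -0.50 (adjusted p = 0.0318).

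Oasl2 had its lowest levels in liver. It ran from 7.46 to 12.8 CPM in heart, from 7.61 to 15.7 in kidney and from 2.56 to 11.2 in liver. Liver against heart gave a log2 change of -0.72 ± 0.14 (adjusted p = 2.6e-05), and liver against kidney -0.25 ± 0.14 (adjusted p = 0.102). The latter became -0.42 (adjusted p = 0.00165) without liver 10 weeks replicate 2, and -1.05 (adjusted p = 4.05e-08) with library totals alone. The direction of Oasl2 for kidney against heart depended on the scaling, at -0.47 ± 0.14 (adjusted p = 0.00237) with TMM factors and 0.05 (adjusted p = 0.722) with library totals alone.

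Counted over the members, with Isg15 taken without strand, 2 of 9 were higher and 7 of 9 lower in kidney than in heart. The lower ones included Rtp4 (-1.20 ± 0.16), Ifit1 (-1.17 ± 0.18), Irf7 (-0.87 ± 0.19) and Usp18 (-0.83 ± 0.21). With library totals alone, Irf7, Usp18, Isg15 and Oasl2 lost the call for this comparison (adjusted p = 0.0798, 0.18, 0.159 and 0.722). From both strand columns, fitted with TMM factors only, Isg15 changed by -1.07 ± 0.15 (adjusted p = 1.02e-07). Among all 19716 genes tested, 47.1% were higher and 39.0% lower. For liver against heart, 6 members were higher and 1 lower, against 42.2% and 42.0% of all genes. For liver against kidney, 6 members were higher and 2 lower, against 37.0% and 46.0%. Since most genes differ between organs, a called difference by itself sets no member apart. The median log2 change of the members was -0.87, 1.12 and 2.32 in the 3 comparisons, beside 0.15 over all genes for kidney against heart, -0.16 for liver against kidney and close to 0 for liver against heart. With library totals alone, the median of all genes moved by 0.52, -0.22 and -0.78. The top 20 genes took 36.9% to 41.2% of the pairs of a heart library and 18% to 19.8% in kidney. The calls over all genes then moved from 9282 higher and 7694 lower to 12170 and 5183 for kidney against heart, from 8315 and 8277 to 6999 and 9508 for liver against heart, and from 7303 and 9074 to 3344 and 14248 for liver against kidney.

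**Figure D2:**
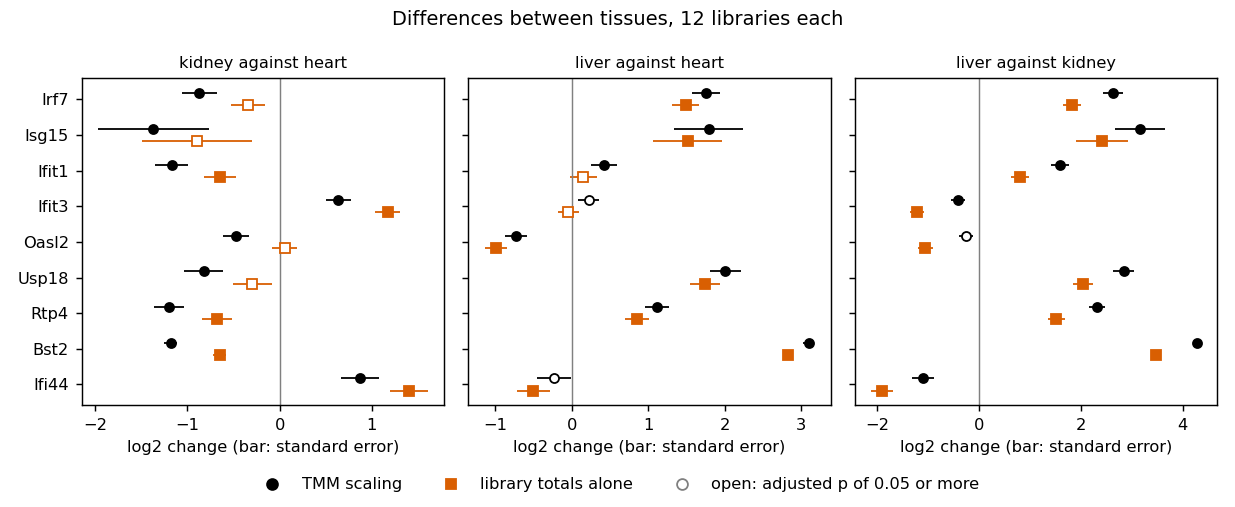
Log2 change (horizontal axis, with its standard error) of each member between tissues, 12 libraries each, with TMM scaling (black circles) and library totals alone (orange squares); open symbols have an adjusted p of 0.05 or more. Bst2, Irf7, Usp18 and Rtp4 lie to the right of 0 in both liver comparisons under both scalings, and Oasl2 crosses 0 between the scalings for kidney against heart. Isg15 is taken without strand.

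The other genes of the pathway gave a background to these differences. Of 42 further antiviral genes induced by type I interferon, 21 were higher and 16 lower in liver than in heart, with a median log2 change of 0.42, and 8 were higher and 26 lower in kidney than in heart (median -0.68). Of all genes, 42.2% were higher and 42.0% lower in liver than in heart, and 47.1% and 39.0% in kidney than in heart. For liver against kidney, 27 of the 42 were higher and 13 lower (median 0.69), beside 37.0% and 46.0% of all genes. Those with the smallest adjusted p for liver against kidney were Ifitm3, which blocks the entry of viruses (3.94 ± 0.11), Dtx3l (2.61 ± 0.08), Parp9 (2.13 ± 0.07) and Samd9l (-3.00 ± 0.10). The transcription factors Stat2 and Irf9 were higher in liver than in heart, at log2 changes of 2.25 ± 0.07 and 1.31 ± 0.08 (adjusted p = 9.49e-26 and 2.43e-17). Irf3, the constitutive factor beside Irf7, lay 1.53 ± 0.05 higher (adjusted p = 3.11e-25). Of 6 receptor genes, 2 were higher and 4 lower in liver than in heart, with a median log2 change of -1.64. The higher ones were Ifnar1 and Ifnar2, at 0.85 ± 0.04 and 0.25 ± 0.08 (adjusted p = 1.07e-18 and 0.00637). The mean levels of Ifnar2 nearly coincided, at 5.71 CPM in liver and 5.69 in heart, and its change was -0.01 (adjusted p = 0.939) with library totals alone. Among the lower ones were the receptor genes of interferon gamma, Ifngr1 and Ifngr2, at -1.50 ± 0.07 and -2.90 ± 0.08 (adjusted p = 5.89e-21 and 3.6e-27).

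Interferons themselves were at the limit of detection. The summed level of 21 interferon genes never exceeded 0.1836 CPM in a library, and 16, 15 and 18 of them had no pair in any heart, kidney and liver library. Ifnb1 held 2 pairs in 12 heart libraries, 1 in kidney and 0 in liver, and Ifng held 2, 8 and 3. The 0 for Ifnb1 allows up to 3 pairs over the 12 liver libraries, counting error only. Differences in these genes were not detectable at this depth.

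Macrophage markers also differed between the tissues. The summed CPM of 10 macrophage genes had medians of 218.3, 204.9 and 246.3 for heart, kidney and liver, and 6 of the 10 were called higher in liver than in heart, 8 higher and 2 lower in liver than in kidney, and 2 higher and 8 lower in kidney than in heart. Of all genes, 42.2% were higher in liver than in heart, and 37.0% higher and 46.0% lower in liver than in kidney. For kidney against heart the shares were 47.1% higher and 39.0% lower. None of the 10 macrophage genes was at 0 in a tissue. The markers of plasmacytoid dendritic cells, which specialise in making interferon, summed to at most 1.144, 1.673 and 1.576 CPM. Their part in the differences was not tested.

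With age, no member passed the adjusted p of 0.05 in any of the 9 comparisons. In heart and kidney 8 of 9 members passed the filter on low counts, all but Isg15, and in liver 9 of 9, with Isg15 taken without strand. For 10 against 8 weeks, 1.06% of all genes were called in heart, 0.929% in kidney and 0.0204% in liver. For 12 against 8 weeks the shares were 4.56%, 0.0567% and 0.239%, and for 12 against 10 weeks 0.0396%, 0.482% and 0.0545%. At an unadjusted p under 0.05, 5 of 8 members in heart, 3 of 8 in kidney and 2 of 9 in liver passed for 10 against 8 weeks, beside 15.8%, 16.5% and 14.3% of all genes. For 12 against 8 weeks the numbers were 0, 1 and 1, beside 23.4%, 11.7% and 15.1%, and for 12 against 10 weeks 4, 0 and 1, beside 11.7%, 16.4% and 14.1%. limma-voom called 0 members in all 9 comparisons. DESeq2 called Bst2 alone, higher in liver at 10 than at 8 weeks (0.41 ± 0.13, adjusted p = 0.0498), where it called 2.46% of all genes. Without a filter on low counts, edgeR called members in 5 of the 9 comparisons and also more genes in all. For 10 against 8 weeks it called 3 members in heart, 2 in kidney and 1 in liver, beside 2.18%, 2.39% and 1.02% of all genes, and in heart 1 for 12 against 8 weeks (3.09%) and 2 for 12 against 10 weeks (0.840%).

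The mean levels were nevertheless higher at 10 than at 8 weeks for each member tested in each tissue. The log2 changes had a median of 0.40 in heart (range 0.24 to 0.52), 0.33 in kidney (0.12 to 0.62) and 0.45 in liver (0.17 to 0.97), beside medians of 0.00 over all genes. The 0.97 was Isg15 in liver from the few pairs without strand (0.461 against 0.232 CPM). Isg15 passed the filter in no other tissue, and failed it in liver without the 10-week replicate 2. Its strand columns gave 0.43 in liver, and the next highest member there was Irf7 at 0.84. The lowest adjusted p of a member counted without strand was 0.225, 0.165 and 0.159 in the same order of tissues. From 10 to 12 weeks the values lay below 0 for all 8 members in heart, 7 of 8 in kidney and 9 of 9 in liver, with medians of -0.26, -0.19 and -0.60. Both comparisons share the 10-week libraries, so a high 10-week mean gives both.

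The values of the libraries show how these differences were spread. Irf7 in heart stood at 15.3, 10.9, 9.83 and 10.0 CPM at 8 weeks, at 12.2, 28.0, 12.9 and 9.87 at 10 weeks and at 7.96, 10.0, 9.37 and 6.88 at 12 weeks. Replicate 2 of the 10-week hearts lay far above the rest, and the other 3 lay within the range of the 8-week hearts. In kidney Irf7 stood at 8.58, 7.55, 6.72 and 8.33 CPM at 8 weeks, at 9.09, 17.1, 7.52 and 7.66 at 10 weeks and at 7.65, 12.3, 10.2 and 7.57 at 12 weeks. The 10-week replicate 2 was again the highest of the 12. In liver Irf7 stood at 31.3, 28.5, 27.6 and 17.8 CPM at 8 weeks, at 35.9, 93.5, 32.7 and 29.0 at 10 weeks and at 23.5, 30.7, 33.4 and 21.9 at 12 weeks.

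**Figure D3:**
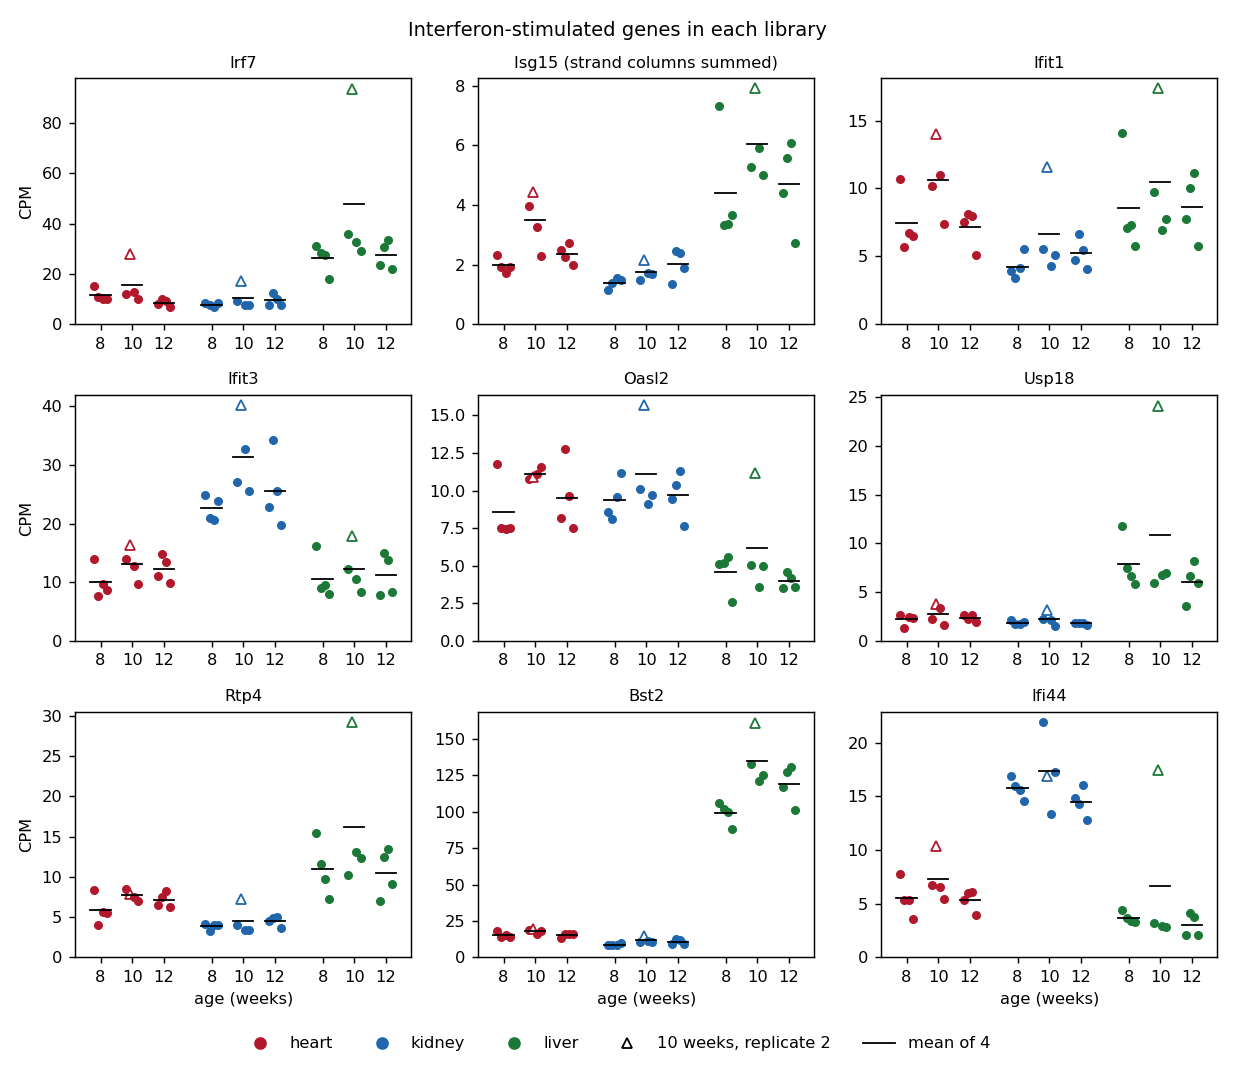
CPM (vertical axis, from 0) of each member in each library by age and tissue; lines are means of 4, and open triangles are replicate 2 at 10 weeks. In liver the triangle is the highest of the 12 libraries for all 9 members, with Irf7 at 93.5 and Bst2 at 161 CPM.

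Bst2 was the member with the smallest p for 10 against 8 weeks in kidney and liver. In liver it stood at 106, 102, 100 and 88.3 CPM at 8 weeks, at 133, 161, 121 and 125 at 10 weeks and at 117, 127, 131 and 101 at 12 weeks, so that the 8-week and 10-week livers did not overlap. The log2 change was 0.40 ± 0.12 (adjusted p = 0.159, edgeR). In kidney it stood at 8.25, 8.85, 8.71 and 9.75 CPM at 8 weeks and at 10.7, 14.7, 11.2 and 10.4 at 10 weeks, also without overlap (0.38 ± 0.13, adjusted p = 0.165). Ifit3 in kidney stood at 24.9, 21, 20.6 and 23.9 CPM at 8 weeks and 27.1, 40.3, 32.8 and 25.5 at 10 weeks (0.46 ± 0.16, adjusted p = 0.172), and these groups did not overlap either. Every 10-week library lay above every 8-week library for 0 of 8 members tested in heart, 2 of 8 in kidney and 1 of 9 in liver, against 4.14%, 5.24% and 6.07% of all genes tested.

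Ifit1 had the smallest p in heart of the members counted without strand. It stood at 10.7, 5.71, 6.74 and 6.53 CPM at 8 weeks, at 10.2, 14.0, 11 and 7.35 at 10 weeks and at 7.55, 8.11, 7.99 and 5.09 at 12 weeks. The 8-week and 10-week hearts overlapped through replicate 1 at 8 weeks (0.52 ± 0.20, adjusted p = 0.225). Oasl2 in heart stood at 11.8, 7.50, 7.46 and 7.50 CPM at 8 weeks and at 10.8, 10.9, 11.1 and 11.6 at 10 weeks. Here too replicate 1 at 8 weeks alone overlapped with the 10-week hearts, and replicate 2 at 10 weeks did not stand apart (0.38 ± 0.16, adjusted p = 0.267).

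Isg15 from its strand columns stood at 2.33, 1.93, 1.72 and 1.92 CPM in heart at 8 weeks, at 3.96, 4.42, 3.26 and 2.28 at 10 weeks and at 2.50, 2.25, 2.72 and 1.98 at 12 weeks. Its log2 change from 8 to 10 weeks in heart was 0.81 ± 0.20 (adjusted p = 0.0709), the lowest adjusted p of any member in this comparison. The groups overlapped only through the 10-week heart at 2.28 CPM. In kidney and liver the change was 0.31 ± 0.21 and 0.43 ± 0.29 (adjusted p = 0.527 and 0.558).

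The 10-week replicate 2 stood out in each tissue. It was the highest of its 4 libraries for 7 of 9 members in heart, 8 in kidney and 9 in liver. In liver, Ifi44 stood at 17.5 CPM there and at 2.87 to 3.18 in the other 3, which is 5.84 times their mean. Usp18 stood at 24.1 CPM against 5.90 to 7.01, Rtp4 at 29.2 against 10.2 to 13.1, Oasl2 at 11.2 against 3.6 to 5.07, and Ifit1 at 17.4 against 6.94 to 9.71. The ratio to the mean of the others had a median over members of 1.40 in heart, 1.60 in kidney and 2.45 in liver, with exceptions for Oasl2 (0.977) and Rtp4 (1.02) in heart and for Ifi44 in kidney (0.966).

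Without this replicate the differences between 10 and 8 weeks shrank. The median log2 change became 0.24 in heart (8 of 8 members above 0), 0.10 in kidney (7 of 8) and -0.09 in liver (3 of 8, since Isg15 then failed the filter). For 12 against 10 weeks the medians became -0.24, 0.05 and 0.00. No member counted without strand was called without it, and the lowest adjusted p for 10 against 8 weeks was 0.282, 0.296 and 0.175. Leaving out heart 8 weeks replicate 1 instead gave a single call in heart, Rtp4 at 0.61 ± 0.14 (adjusted p = 0.0395), where 1.94% of all genes were called. Rtp4 stood at 8.39 CPM in that library and at 4.02, 5.67 and 5.48 in the other hearts of this age.

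**Figure D4:**
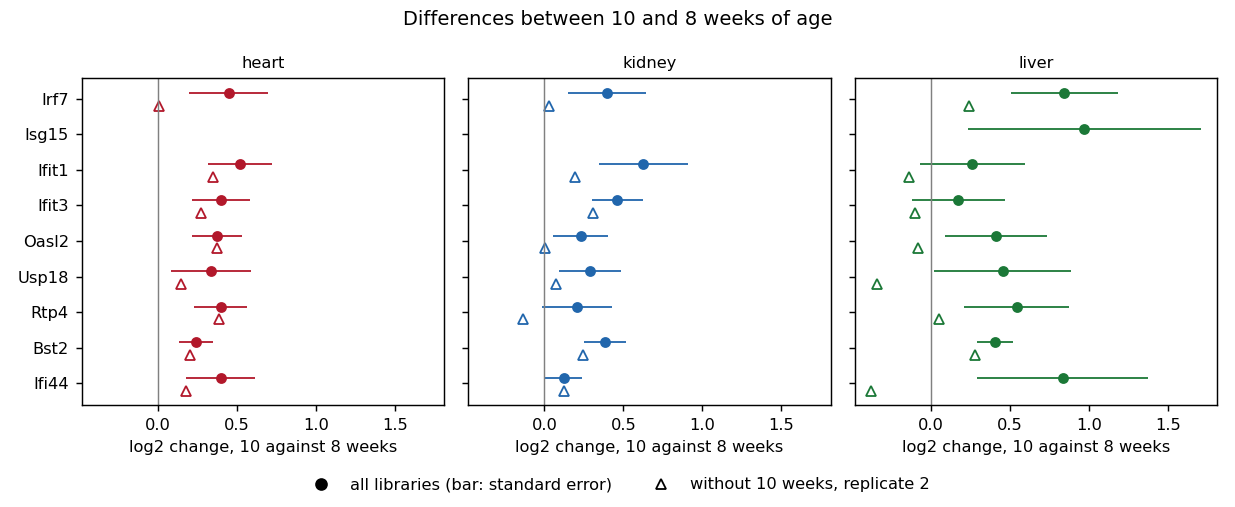
Log2 change from 8 to 10 weeks (horizontal axis) of each member in heart, kidney and liver with all libraries (filled circles, bars are standard errors) and without replicate 2 at 10 weeks (open triangles). In liver the median moves from 0.45 (9 members, Isg15 without strand) to -0.09 (8 members, without Isg15), and in heart all 8 triangles stay above 0.

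The difference between tissues in the change with age was tested as an interaction. None of 81 tests of members passed, none had an unadjusted p under 0.05, and the lowest adjusted p was 0.295. Over all genes, 0.830% of the interaction tests were called, and 11.5% had an unadjusted p under 0.05. Without a filter on low counts, Ifi44 was called for liver against kidney from 10 to 12 weeks (difference -0.93, adjusted p = 0.0298), where 1.17% of all genes were called. limma-voom and DESeq2 called 0 members.

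The names of the libraries carry numbers that the 3 tissues share, 1 to 4 at 8 weeks, 9 to 12 at 10 weeks and 17 to 20 at 12 weeks. The labels do not say whether equal numbers mark the same mouse. The 10-week replicate 2 is number 10 in each tissue. Irf7, Isg15, Ifit1, Ifit3, Usp18 and Bst2 were highest of their 4 in number 10 in heart, kidney and liver alike, which makes 6 of 9 members against 2.80% of 12537 genes. Irf7, Ifit3, Usp18, Rtp4 and Ifi44 were highest in number 1 at 8 weeks in all 3 tissues, 5 of 9 members against 5.88% of genes. At 12 weeks no number was the highest in all tissues for more than 1 member. Number 10 was singled out through these same members. The 9 members are also read from the same libraries and are not independent, so these counts and shares cannot be compared as a test.

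The deviations from the mean of tissue and age were correlated between tissues over the 12 numbers. For Ifit3 between heart and liver, Pearson's r was 0.926 and Spearman's rho 0.93 (exact permutation of numbers within ages, two-sided p = 0.00101 and 0.00116), and r was 0.889 without numbers 1 and 12, the farthest from the median. For Irf7, r was 0.917 between heart and liver (rho 0.853, exact p = 0.00159 and 0.00297) and 0.895 between heart and kidney (rho 0.797, exact p = 0.00376 and 0.00926), and 0.776 and 0.786 without numbers 1 and 10. For Ifi44 between heart and liver, r was 0.727 and rho 0.797 (exact p = 0.000434 and 0.00094), and r was 0.778 without numbers 4 and 10. Between heart and kidney and between kidney and liver, r of Ifi44 was 0.338 and 0.108 (rho 0.42 and 0.133, exact p = 0.351 and 0.667 for r, 0.214 and 0.699 for rho). Oasl2 showed little of this, with r of 0.12, 0.226 and 0.434 for heart and kidney, heart and liver, and kidney and liver.

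In all, 27 such relations were computed. Their exact permutation p was under 0.05 for 4 of 9 members between heart and kidney, 5 between heart and liver and 2 between kidney and liver, against 7.12%, 6.42% and 8.07% of all genes. Since the 9 members are not independent of each other, these counts and shares cannot be compared as a test either. Adjusted over all genes, no member and no other gene passed, and the lowest adjusted p of a member was 0.492, 0.459 and 0.532. With 13824 permutations, however, the exact p cannot fall below a floor. A gene could pass this adjustment only if many genes lay near that floor together, so the lack of passes decides nothing. The median r over members was 0.383, 0.647 and 0.64, and 0.408, 0.597 and 0.341 without number 10. Over all genes the median r was 0.0985, 0.0158 and 0.15.

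**Figure D5:**
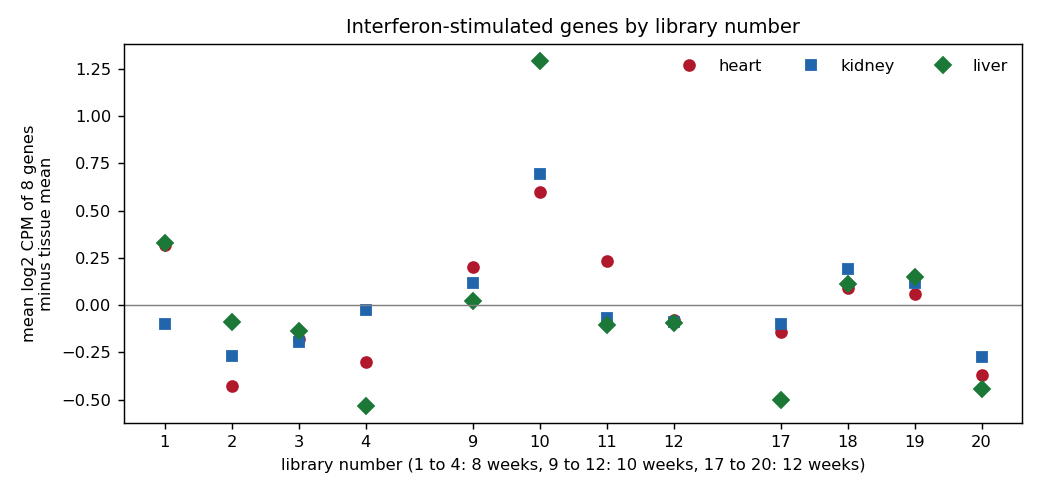
Mean log2 CPM of 8 members (without Isg15) minus the mean of the tissue (vertical axis) in each library by its number. Number 10 is the highest in each tissue, at 0.60, 0.69 and 1.29 in heart, kidney and liver, and number 20 is below 0 in all 3.

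Markers of some immune cells, but not of all, were high in number 10. The summed CPM of 7 neutrophil genes was 15.32 in heart number 10, against 3.386 to 3.707 in the other 10-week hearts, 2.404 against 0.74 to 1.158 in kidney and 17.99 against 2.281 to 4.019 in liver, the highest of the 12 in each tissue. Liver at 12 weeks reached 17.46 CPM as well. The summed CPM of 5 monocyte genes was the highest of 12 in number 10 in each tissue, at 59.15, 16.9 and 15.31. Taken singly, 4, 3 and 5 of these 5 genes were highest of the 4 10-week libraries there. The sum of 10 macrophage genes was highest there in heart (267.6) and liver (387.8), but not in kidney (207.1, with others up to 226.7). Singly, 5, 6 and 8 of these 10 genes were highest of the 4 in heart, kidney and liver. By their sums, T and natural killer cell markers in number 10 ranked 9, 8 and 2 of 12 in heart, kidney and liver, and 8 early stress genes ranked 3, 3 and 2. B and plasma cell markers ranked 10, 11 and 3, and conventional dendritic cell markers 7, 10 and 5. Plasmacytoid dendritic cell markers ranked 10, 10 and 1. The liver genes in the heart library of number 10 summed to 18.3 CPM. Their part in the levels of the members was not tested. The depth of number 10 was the lowest of the hearts (21743131 pairs) and the highest of the livers (33637390).

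The genes most like the members over the 36 libraries, with the tissue means removed, were largely other genes of the pathway, since 9 of the first 10 stood in its lists. Among 12529 genes, the highest Pearson r with the mean of 8 members belonged to Gbp3 (0.85), Xaf1 (0.832), Oas1a (0.83), Parp14 (0.828), Zbp1 (0.821), Irf9 (0.813), Ifitm3 (0.806), Phf11d (0.805), Oasl1 (0.794) and Gvin1 (0.787). Of the 42 further type I interferon targets, 33 had r above 0.5 (median 0.655), and of 13 GTPases induced mainly by interferon gamma 11 did (median 0.547), beside a median of 0.0269 over all genes. These values are a description, as the libraries share number 10 and the tissues share the numbers. Within heart the most alike was Ly86 (r = 0.921 over 12 libraries), within kidney Ifit3b (0.944), which shares sequence with Ifit3, and within liver Ly6e (0.951). B2m, the light chain of MHC class I, had r = 0.908 within kidney, and the class I gene H2-T24 had r = 0.9 within heart.

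Few of the other pathway genes were called with age. Of the 42 further targets, only Cmpk2, which makes nucleotides for an antiviral product, was called, with a log2 change from 8 to 10 weeks of 0.51 ± 0.12 in heart and 0.50 ± 0.10 in kidney (adjusted p = 0.0425 and 0.0334). All 42 were tested in each tissue, and their median log2 change for this step was 0.22, 0.20 and 0.31 for heart, kidney and liver. Among 15 GTPases of interferon gamma, 13 were tested in heart, where Gbp2 (0.70 ± 0.15) and Ifi47 (0.99 ± 0.23) were higher at 10 than at 8 weeks (adjusted p = 0.0399 and 0.047). Gbp2 and Irgm2 were higher at 12 than at 8 weeks (0.58 ± 0.15 and 0.76 ± 0.15, adjusted p = 0.0432 and 0.0136). In kidney Irf1, an early target of both interferons, was higher at 12 than at 8 weeks (0.57 ± 0.09, adjusted p = 0.0327). In heart the sensor regulator Trim56 was higher at 12 than at 8 weeks (0.31 ± 0.08, adjusted p = 0.0392). None of the receptors or enzymes of ISG15 conjugation that were tested was called in any comparison of ages.

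Ordered by mean, the 9 groups of tissue and age formed a run of mostly overlapping neighbours for each member. Of the 8 neighbouring pairs, none was without overlap for Irf7, Isg15, Ifit1, Oasl2, Usp18 and Rtp4. A single gap stood in the order of Ifit3 (kidney at 8 weeks over heart at 10 weeks, 22.6 against 13.1 CPM), of Bst2 (liver at 8 weeks over heart at 10 weeks, 98.9 against 18.3) and of Ifi44 (kidney at 12 weeks over heart at 10 weeks, 14.5 against 7.31). In each case the gap lay between tissues and not between ages.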

How the data were processed

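The deposited files hold counts of read pairs per gene, which the authors made with STAR 2.7.11b on GRCm39 and Ensembl annotation after cutadapt 4.2 and FastQC 0.11.9. The column without strand was used, and both strand columns for Isg15. Depth was 21031599 to 33637390 pairs. Genes were kept with a mean count of at least 10, and at least 2 libraries above 0, in an age group. Ages were compared within each tissue, and tissues and interactions in a joint fit, with TMM factors and the quasi-likelihood test of edgeR 4.0.16 in R 4.3.3, tested on simulated data. A call had a Benjamini-Hochberg adjusted p under 0.05 over all genes. DESeq2 1.42.0, limma-voom 3.58.1, other filters, scalings and left-out libraries were alternatives. Summed strand columns, the set without number 10 and the permutation test of correlations were added after the data were seen. Gene names, overlaps and promoters came from GENCODE vM39, where 78168 of 78239 identifiers were found, a later release than the authors used. Named were all members, up to 4 called genes of each other list, direct partners and the genes most alike. Members and lists were chosen with earlier results of these data known. Not every gene of the pathway lists is reported here.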

Additional observations from a re-analysis of the deposited data

Results flagged for a closer look

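Of 81 groups of 4 libraries, 13 held a library whose gap to the nearest of the others was large for the range of its group (above Dixon's critical value for 4 samples). For normal values chance flags about 1 in 20 groups, or 4.05 here. The groups are not independent, because the 9 members are read from the same libraries, so the 2 counts cannot be compared as a test. Number 10, the 10-week replicate 2, gave 8 of the 13. It was the highest for Irf7 in heart at 28.0 CPM (others 9.87 to 12.9), in kidney at 17.1 (7.52 to 9.09) and in liver at 93.5 (29.0 to 35.9). It was also the highest for Oasl2 in kidney (15.7), for Rtp4 in kidney (7.25) and liver (29.2), for Usp18 in liver (24.1) and for Ifi44 in liver (17.5).

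The other 5 came from different libraries. Replicate 1 at 8 weeks was highest for Isg15 in liver at 7.30 CPM (others 3.34 to 3.65) and for Oasl2 in heart at 11.8 (others 7.46 to 7.50). The lowest libraries that stood apart were Oasl2 in liver 8 weeks replicate 4 (2.56), Rtp4 in kidney 8 weeks replicate 2 (3.31) and Bst2 in heart 12 weeks replicate 1 (13.5). Outside the column used for the tests, the strand columns held 3562 pairs on Isg15, where the column without strand held 159.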

How the results depend on the processing

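Without a filter on low counts, edgeR called 3 members in heart for 10 against 8 weeks (Irf7, Ifit3 and Ifit1), 1 for 12 against 8 weeks (Irf7) and 2 for 12 against 10 weeks (Irf7 and Ifit1), 2 in kidney for 10 against 8 weeks (Ifit3 and Ifit1), 1 in liver for 10 against 8 weeks (Irf7) and 1 interaction of liver against kidney (Ifi44), all of which had 0 otherwise. Over all genes this setting called 798, 1133, 308, 1005 and 350 in these comparisons of ages, against 161, 691, 6, 164 and 3 with the filter. DESeq2 called 1 in liver for 10 against 8 weeks (Bst2), among 361 genes. The cause was not tested. With library totals alone and Isg15 taken without strand, 5 members instead of 9 were called for kidney against heart, and Oasl2 turned to 0.0546 on the log2 scale. Leaving out 1 library at a time gave 0 to 1 calls for heart 10 against 8 weeks and 0 in the other comparisons of ages and in the interactions, 8 to 9 for kidney against heart, 6 to 7 for liver against heart and 8 for liver against kidney.

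With the library number as a block, 9, 8 and 9 members were called between tissues (kidney against heart, liver against heart, liver against kidney), and 0 by interaction. Ifit3 for liver against heart (0.20, adjusted p = 0.0182) and Oasl2 for liver against kidney (-0.28, adjusted p = 0.0276) were gained. By age, where the block was the replicate number within a tissue, 0 members were called. The numbers were not taken as pairs, because the labels do not say whether they mark the same mouse. Over all genes, equal numbers correlated at 0.0377 to 0.162 for heart and kidney and 0.00412 to 0.158 for heart and liver. For kidney and liver the values were 0.0638 to 0.248, and equal replicate numbers of different ages within a tissue gave -0.246 to 0.168. Many libraries nevertheless correlated best with their own number. Of 12 heart libraries, 10 did so in kidney and 6 in liver. Of 12 kidney libraries, 10 did so in heart and 11 in liver, and of 12 liver libraries, 8 in heart and 9 in kidney. If equal numbers do mark the same mouse, the tests without a block ignore that pairing.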
